A study of Homo sapiens with 2 samples.

Results

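The lamins and the proteins of the inner nuclear membrane were taken as 10 genes, LMNA, LMNB1, LMNB2, LBR, EMD, TMPO, LEMD3, BANF1, SUN1 and SUN2, out of 17240 genes named on the arrays. They were chosen by symbol, with earlier results of these data known. Every probe whose RefSeq accession belonged to one of them was included, which gave 13 of 41000 probes. LMNA, TMPO and SUN1 had 2 probes each and the other genes 1. All 13 probes were well above background for both RNAs in both hybridizations, so none was lost to the filter on weak signals, which kept 36060 of the 41000 probes.

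The nuclear lamina is a mesh of intermediate filaments under the inner nuclear membrane. LMNA encodes lamins A and C by alternative splicing, while LMNB1 and LMNB2 encode the B-type lamins, which stay farnesylated and membrane-bound. The lamina is held to the membrane and to chromatin by integral proteins such as the lamin B receptor LBR and the LEM-domain proteins emerin (EMD), lamina-associated polypeptide 2 (TMPO) and MAN1 (LEMD3), whose shared domain binds the small DNA-bridging protein BAF (BANF1). SUN1 and SUN2 span the same membrane and join the lamina to cytoskeletal linkers through the LINC complex. The balance of lamins and their partners is known to set the stiffness and shape of the nucleus, which matters when carcinoma cells migrate.

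RNA came from SKOV3, a human ovarian adenocarcinoma line. The cl-sh3 clone had been stably transduced with a lentiviral pLKO.1-puro vector carrying a short hairpin RNA against RUNX2, a runt-domain transcription factor, and the control (mock-transfected) clone carried the same vector with a scramble sequence. Both clones were selected with puromycin, and each group is 1 clone, so that a difference due to RUNX2 cannot be told apart from a difference between clones. The RNAs of both clones were labelled with Cy3 and Cy5 and competed on the same Agilent whole human genome array, with cl-sh3 in Cy5 and the control in Cy3 in hybridization 1 and the dyes reversed in hybridization 2. Both hybridizations used the same 2 RNAs on 1 slide and count as 1 replicate, so no test between the clones was possible, no p-value is given, and the difference between hybridizations shows technical error only. Ratios are log2 of cl-sh3 over control after background correction and loess normalization, and intensities are in arbitrary units, comparable between the clones for one probe but not between probes. A lower ratio in such bulk RNA does not separate fewer cells with a transcript from less transcript per cell.

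The targeted gene was checked first. The brightest RUNX2 probe had log2 ratios of -2.04 and -1.30 in hybridizations 1 and 2, a mean of -1.67, or 3.18-fold lower in cl-sh3. The other probe of the same accession did not share this decrease, with ratios of 0.17 and -0.13, and a RUNX2 probe on another accession (NM_001015051) gave -0.29 and -0.17. Of the cell type markers, all 10 epithelial markers, 4 of 4 leukocyte, 3 of 3 endothelial, 2 of 4 fibroblast and 1 of 2 hepatocyte markers passed the signal filter, PDGFRB and ALB being not well above background and COL1A1 having no named probe, and none of those that passed was 1.5-fold changed in both hybridizations. Levels cannot be compared between probes, and markers of other cell types passed too, so these arrays do not check the labelled cell type.

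Promoter sequences are shown for the members with the largest changes, since the transcription factor knocked down recognizes a short DNA motif. They come from RefSeq on GRCh38.p14 and cover 250 bases before a transcript start, and 9 of the 10 members had 15 such windows between them. Sequences are written 5′ to 3′ on the strand of the gene, and capitals mark a RUNX motif (TGTGGT or ACCACA) or a CCAAT box (CCAAT or ATTGG). LBR, on the minus strand at chr1:225428822-225429071, held the only RUNX motif among the member windows, 191 bases before the start. EMD, on the plus strand at chrX:154379045-154379294, held a pair of CCAAT boxes, 224 and 115 bases before the start. For LMNB1, on the plus strand, only the stretch chr5:126776985-126777014 around its single CCAAT box is shown, which lay 138 bases before the second of 2 listed starts.
LBR: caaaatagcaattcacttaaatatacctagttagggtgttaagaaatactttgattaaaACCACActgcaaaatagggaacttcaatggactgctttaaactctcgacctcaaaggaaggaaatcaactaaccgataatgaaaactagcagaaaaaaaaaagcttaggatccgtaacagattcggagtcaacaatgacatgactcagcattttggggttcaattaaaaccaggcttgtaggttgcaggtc
EMD: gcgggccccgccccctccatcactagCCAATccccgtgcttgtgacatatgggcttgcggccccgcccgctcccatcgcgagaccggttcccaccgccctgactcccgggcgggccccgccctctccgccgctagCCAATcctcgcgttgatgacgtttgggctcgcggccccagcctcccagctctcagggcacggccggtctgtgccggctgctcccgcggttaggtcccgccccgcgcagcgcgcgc
LMNB1: ctgcctgctccccATTGGcccatggtagtc

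The RUNX motif was present in 1 of 15 member windows, against 11.0% of the 35116 windows of all genes. The variant TGCGGT or ACCGCA was in 0 of 15, against 5.84%. CCAAT boxes stood in 7 of the 15 windows (32.0% of all windows) and GC boxes (GGGCGG or CCGCCC) in 12 (42.6% of all windows), and windows of one gene partly overlapped. The LBR window was low in guanine and cytosine, at 36.8%, and the EMD window high, at 74.0%, around a median of 58.0% for all windows. These matches are letters in a window and do not show binding, and more distant sequence was not searched.

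Of the 13 member probes, in cl-sh3 1 met the 2-fold rule upward in the pair of hybridizations and 0 met it downward, where 0.122% of all kept probes were higher and 0.394% lower by the same rule. LMNB1 was the member past 2-fold. At 1.5-fold, LMNB1 and EMD were higher and LBR was lower (with median centring in place of loess LBR missed 1.5-fold, at -0.74 and -0.56), against 1.35% of all kept probes higher and 2.32% lower. Counted by sign alone, 7 member probes were higher in both hybridizations and 2 lower (29.8% and 27.3% of all kept probes), and 4 differed in sign between hybridizations. The median log2 ratio over the member probes was 0.09, beside 0.01 over all kept probes. The standard deviation of the mean ratios was 0.69 over the members and 0.30 over all kept probes. Because the members were chosen with earlier results of these data known, these values only describe the listed probes. They are no independent evidence about the group.

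**Figure D1:**
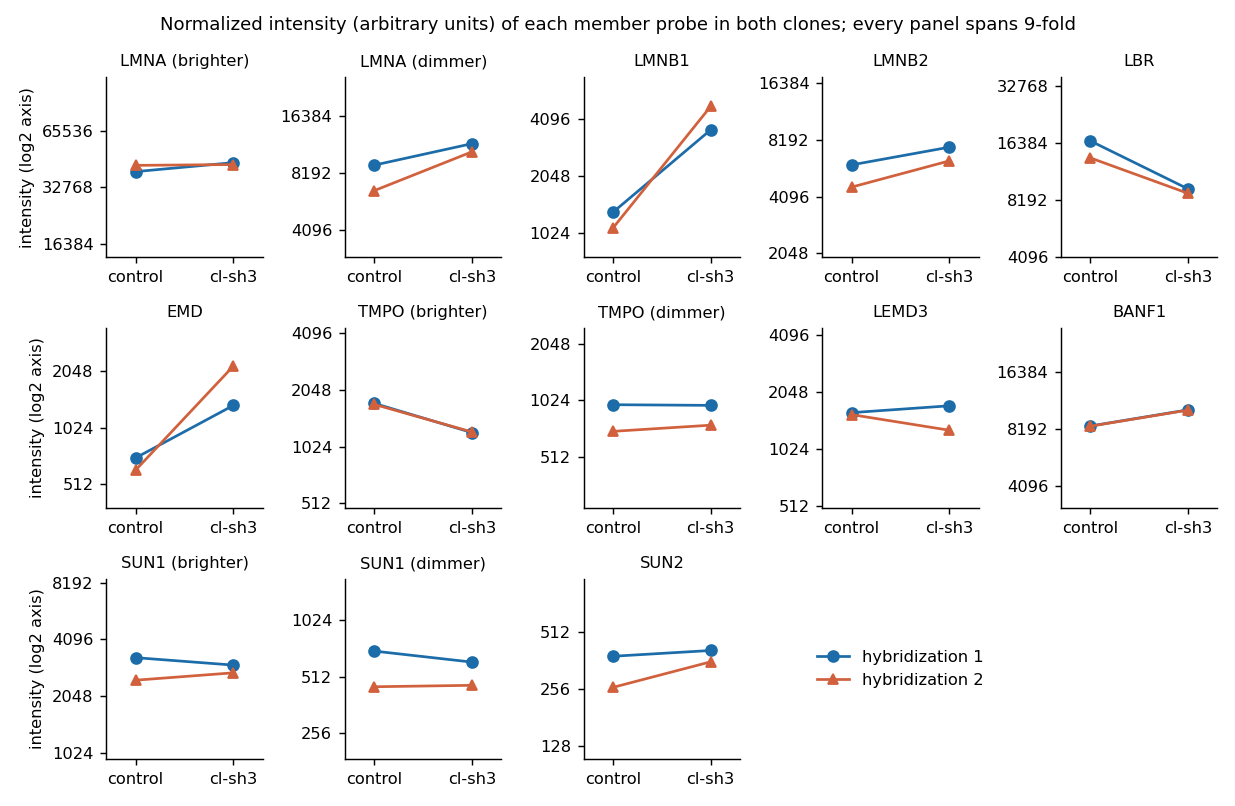
Normalized intensity in arbitrary units (log2 axis) of each member probe in the control and cl-sh3 clones; each line joins both clones within one hybridization, and where a gene has 2 probes they are called brighter and dimmer. Both lines climb steeply for LMNB1 and EMD and descend for LBR and the brighter TMPO probe. For LEMD3, the dimmer TMPO probe and both SUN1 probes, one line climbs and the other descends.

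Among the lamins, lamin B1 was the member that differed most between the clones. The LMNB1 probe (NM_005573) had an intensity of 3612 in cl-sh3 and 1320 in the control in hybridization 1, and of 4813 and 1089 in hybridization 2. In each hybridization the cl-sh3 channel was the brighter one, whichever dye it carried. The log2 ratios were 1.45 and 2.14, with a mean of 1.80, which is 3.48-fold higher in cl-sh3 (2.74-fold and 4.42-fold in the single hybridizations). The hybridizations differed by 0.69, while probes of like brightness differed by 0.28 at the median and by 0.68 at the 95th percentile. This difference is below the smaller ratio of 1.45. The raw signals before any normalization were 4946 against 998 in hybridization 1 and 4694 against 1315 in hybridization 2. In hybridization 1 cl-sh3 carried Cy5, the brighter dye over all probes (median signal 902.5 against 451), so the raw order there shows little. In hybridization 2 the control carried Cy5 (684 against 507.5 in Cy3), and the raw cl-sh3 signal was still the higher one. By mean ratio LMNB1 ranked 5 from the highest of the 36060 kept probes. The 3 probes above it were those of EYA4 (2.30), PFDN6 (2.14) and the unnamed transcript CR616003 (1.93), and the 3 below it DLST (1.75), CRYAB (1.72) and SLC12A3 (1.69).

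Lamin B2, the other B-type lamin, showed a much smaller difference. The LMNB2 probe (NM_032737) read 7498 in cl-sh3 and 6039 in the control in hybridization 1, and 6344 and 4605 in hybridization 2. Its log2 ratios of 0.31 and 0.46 averaged 0.39, or 1.31-fold higher. The hybridization ranges of LMNB1 and LMNB2 did not overlap.

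For LMNA, both probes carried the accession of lamin C (NM_005572), and they gave different ratios. The brighter probe read 44301 and 39698 in cl-sh3 and control in hybridization 1, and 43276 and 42849 in hybridization 2. Its log2 ratios of 0.16 and 0.01 averaged 0.09. The dimmer probe read 11718 and 9013, then 10612 and 6602, with log2 ratios of 0.38 and 0.68 and a mean of 0.53, or 1.45-fold higher. The ranges of these LMNA probes did not overlap, and neither probe was 1.5-fold changed in both hybridizations. With median centring in place of loess, the brighter and dimmer probes were nearly equal in hybridization 1 (0.460 and 0.464). They differed in hybridization 2 (0.04 and 0.75).

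The LEM-domain genes had ratios of different sign. Emerin, whose loss causes an X-linked muscular dystrophy, had the highest mean ratio after LMNB1. The EMD probe (NM_000117) read 1344 in cl-sh3 and 708 in the control in hybridization 1, and 2174 and 610 in hybridization 2. Intensities of cl-sh3 were above those of the control in both hybridizations. The log2 ratios were 0.92 and 1.83, with a mean of 1.38, or 2.60-fold higher (1.90-fold and 3.57-fold). EMD therefore missed the 2-fold rule in hybridization 1, and it passed that rule with median centring in place of loess (1.02 and 1.85) and with the scanner software's own log ratios (1.16 and 1.91). The difference of 0.91 between hybridizations exceeded the 95th percentile of probes of like brightness, 0.68. By mean ratio EMD ranked 19 from the highest of all kept probes. LMNB1 and EMD both had the larger ratio in the hybridization with cl-sh3 in Cy3, and the part of the dyes in these ratios was not tested. The study placed both genes in its cell morphology group after selecting on these same arrays, so that group is no independent evidence for their increase.

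TMPO encodes several proteins by splicing, among them LAP2 alpha, which lacks the membrane anchor and binds A-type lamins in the nucleoplasm, and LAP2 beta, a membrane protein that binds lamin B. The probe on the alpha transcript (NM_003276) read 1215 in cl-sh3 and 1737 in the control in hybridization 1, and 1225 and 1715 in hybridization 2. After normalization cl-sh3 was below the control in both hybridizations. The raw signals of hybridization 1 ran the other way (1785.5 in cl-sh3 and 1306 in the control). The ratios of -0.52 and -0.48 differed by only 0.03. Their mean of -0.50 was 1.41-fold lower in cl-sh3, at percentile 5.9 of all kept probes. The probe on the beta transcript (NM_001032283) read 964 and 972, then 757 and 702, with ratios of -0.01 and 0.11. The ranges of the alpha and beta probes did not overlap, and which transcripts each probe also detects was not examined.

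LEMD3, an inner membrane antagonist of SMAD signalling, read 1732 and 1593 in cl-sh3 and control in hybridization 1, and 1285 and 1555 in hybridization 2. The sign of its ratio changed with the dyes, at 0.12 and -0.28, so no direction can be given. BANF1, the partner of the LEM domain, read 10346 and 8490, then 10313 and 8470. Its ratios of 0.29 and 0.28 were the closest pair of all 13 probes, at 1.22-fold higher in cl-sh3. That difference is small beside those of EMD and LMNB1 and lay at percentile 89.5 of all kept probes. With the scanner software's own log ratios the BANF1 pair was further apart, at 0.43 and 0.17.

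LBR, which anchors B-type lamins and heterochromatin and carries a sterol reductase domain, was the most decreased member. It read 9358 in cl-sh3 and 16831 in the control in hybridization 1, and 8865 and 13673 in hybridization 2. After normalization the cl-sh3 intensities were below those of the control in both hybridizations. The raw signals of hybridization 1, with cl-sh3 in the brighter dye, were 12704 in cl-sh3 and 12553 in the control. The decrease in that hybridization therefore appears only after normalization. The log2 ratios of -0.85 and -0.63 averaged -0.74, or 1.67-fold lower (1.80-fold and 1.54-fold). The 0.22 between hybridizations was less than the probe's smaller ratio. LBR ranked 790 from the lowest of the kept probes, at percentile 2.19, well inside the range that other probes reached. Lamin B1 and the lamin B receptor thus differed in opposite directions between the same 2 clones, and their ratios did not overlap.

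The SUN genes gave no difference of this size. The brighter SUN1 probe (NM_025154) read 2995 and 3280 in cl-sh3 and control in hybridization 1, and 2726 and 2491 in hybridization 2, with ratios of -0.13 and 0.13. The dimmer SUN1 probe gave ratios of -0.19 and 0.02. Both SUN1 probes changed sign between hybridizations. SUN2 read 411 and 383, then 358 and 262, with ratios of 0.10 and 0.45 and a mean of 0.28, or 1.21-fold higher.

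**Figure D2:**
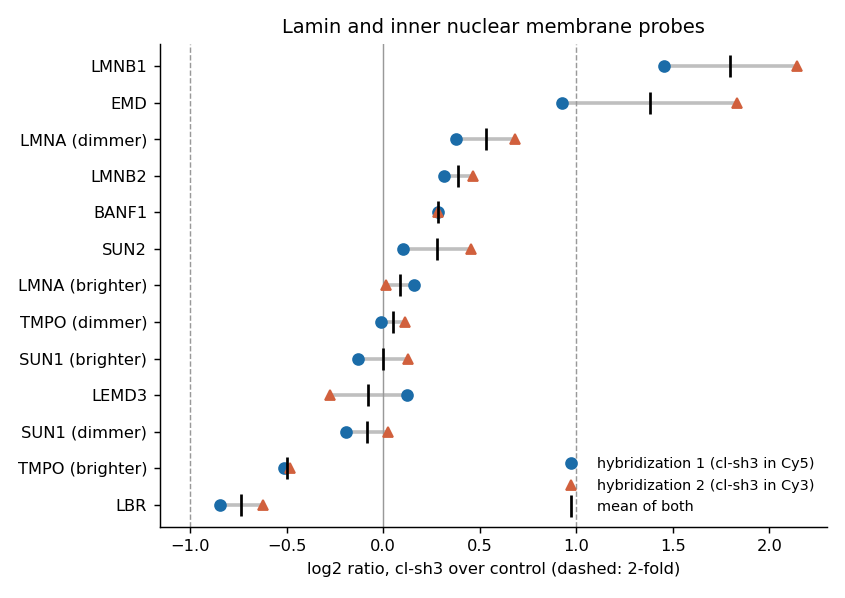
Log2 ratio of cl-sh3 over control for the 13 member probes, ordered by their mean; circles are hybridization 1, triangles hybridization 2, and the short bar is the mean, with dashed lines at 2-fold. LMNB1 (1.45 and 2.14) and EMD (0.92 and 1.83) stand apart on the right, and LBR (-0.85 and -0.63) and the brighter TMPO probe (-0.52 and -0.48) on the left.

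In order of mean ratio, the ranges of LMNB1 and EMD overlapped, although LMNB1 had the higher ratio of the pair within each hybridization. The EMD range did not reach that of the dimmer LMNA probe. After that probe came LMNB2, BANF1, SUN2, the brighter LMNA, beta TMPO and brighter SUN1 probes, LEMD3 and the dimmer SUN1 probe. From the dimmer LMNA probe onward, the hybridization ranges of neighbours in this order overlapped, except those of LMNB2 and BANF1. With the scanner software's own log ratios, LMNB2 (0.32 and 0.36) and BANF1 (0.43 and 0.17) overlapped too. At the low end, the LBR range lay wholly below that of the alpha TMPO probe, which lay below all the others. Each range holds only 2 readings of 1 RNA pair. Probes of like brightness to LBR differed by 0.65 between hybridizations at the 95th percentile, so a small gap between ranges does not set 2 probes apart.

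**Figure D3:**
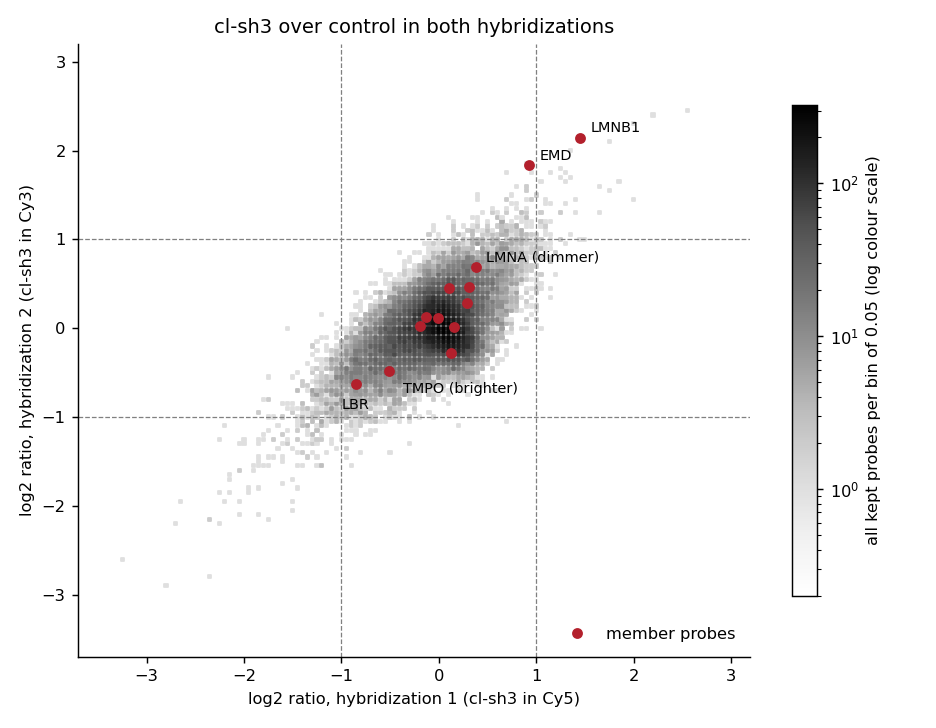
Log2 ratio of cl-sh3 over control in hybridization 1 (horizontal) and hybridization 2 (vertical), with all 36060 kept probes as grey bins and the 13 member probes as red points; dashed lines mark 2-fold. LMNB1 lies in the upper right corner past 2-fold in both, EMD is just left of the vertical 2-fold line at 0.92, and LBR lies in the lower left part of the main cloud.

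Genes that work with the members were followed through 8 lists of 78 genes, 77 of which were measured, each by its brightest probe. None of the 77 was 2-fold or 1.5-fold changed in the same direction in both hybridizations, where 22 of 16153 measured genes were 2-fold higher and 83 lower, and 259 and 420 were past 1.5-fold. Their median log2 ratio was 0.05, beside 0.18 over the 10 members and 0.01 over all measured genes. Of all 125 kept probes of these lists, 1 was 2-fold higher in both hybridizations, a dimmer CHMP4B probe (1.26 and 1.81), and 0 were lower. Over all kept probes the shares were 0.122% and 0.394%. The lists are small, and such counts say nothing about them beyond these genes.

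Of the other nuclear membrane proteins, 13 of 14 were measured, and their mean ratios ran from -0.54 to 0.44. TMEM43, a membrane protein that binds emerin and lamins, had ratios of -0.55 and -0.53, and TOR1A, the lumenal ATPase torsinA, had -0.57 and -0.48. NRM, the multispanning membrane protein nurim, had 0.46 and 0.42. The 8 other LINC complex genes, among them the nesprins SYNE1 and SYNE2 and further SUN-domain genes, had mean ratios between -0.15 and 0.15.

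The 5 enzymes of prelamin processing, which farnesylate, cut and methylate lamin tails, had ratios of both signs. FNTA, the alpha subunit of farnesyltransferase, had ratios of -0.33 and -0.83, while FNTB, its beta subunit, had 0.22 and 0.47. ZMPSTE24, the protease that matures lamin A, had -0.58 and -0.42, and ICMT, the methyltransferase of the farnesylated end, had 0.35 and 0.37. Of the kinases that phosphorylate lamins or BAF, CDK1 had 0.24 and 0.72, and the 3 VRK kinases had means between 0.00 and 0.15. The 2 sterol reductases most like the catalytic domain of LBR, TM7SF2 and DHCR7, had means of -0.04 and 0.19.

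Of 7 chromatin partners, 4 were lower and 2 higher in both hybridizations, where 4593 of the 16153 measured genes were lower and 4993 higher by the same rule. Their median was -0.29, and it was -0.15 in hybridization 1 alone and -0.18 in hybridization 2 alone. The higher ones were the heterochromatin proteins CBX5 (1.16 and 0.44) and CBX1 (0.78 and 0.57), the latter with the opposite sign in its dimmer probes, whose mean ratios were -0.13 and -0.08. HDAC3, a deacetylase bound by emerin and LAP2 beta, had -0.57 and -0.55. The 29 nuclear pore genes ran from -0.49 (NUP133) to 0.32 (NUP214), with 13 higher and 6 lower in both hybridizations. Their median of 0.12 changed sign between the hybridizations, at -0.02 and 0.19. The 8 genes that seal the nuclear envelope after mitosis had, by their brightest probes, a median of 0.10, which likewise changed sign, at -0.02 and 0.12.

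**Figure D4:**
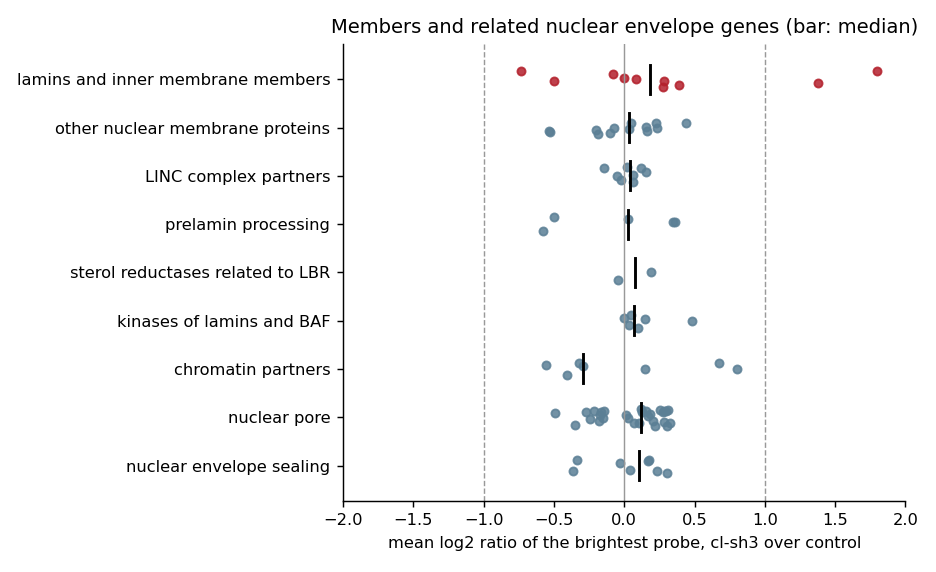
Mean log2 ratio of cl-sh3 over control for the brightest probe of each gene, with the 10 members in red and the 8 lists of related genes in blue; the vertical bar is the median of each row and dashed lines mark 2-fold. The members run from -0.74 to 1.80, and none of the related genes reaches 2-fold by its brightest probe.

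Genes beside LMNB1 and EMD on their chromosomes were looked up by order in the RefSeq table. The 3 measured genes on each side of LMNB1 had mean ratios between -0.01 and 0.25, the highest being PHAX, a snRNA export factor, at -0.01 and 0.51. Around EMD, the ratios lay between -0.08 and 0.18 except for FLNA, the actin cross-linker filamin A next to EMD, which had 0.26 and 1.04 (1.57-fold higher at the mean). FLNA had its larger ratio in the same hybridization as EMD and did not pass 1.5-fold in the other.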

How the data were processed

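The authors deposited the scanner intensity of every spot on both arrays, unnormalized, as median signals with local backgrounds and flags (Feature Extraction 10.5.1.1 per the file headers, 8.5.1.1 in the submitters' processing notes). They also deposited log10 ratios, which equal the software's log10 ratio of the dyes to within 0.00245 and 0.00500 and served as alternatives. Of 45015 spots, 1639 were controls, and 153 and 144 carried outlier flags and were removed. Between 77.3% and 93.9% of spots per channel were well above background.

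Median signals were background-corrected with normexp (offset 50) and normalized within arrays by loess, control spots weighted 0, in limma 3.58.1 under R 4.3.3. Spots of a probe were averaged and the dye swap's sign was turned. To be kept, a probe needed the same RNA flagged well above background on both arrays, and a ratio on both. Kept probes were called when at least 2-fold changed in both. The normalization and the 2-fold rule were tested on simulated data.

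Accessions were named through RefSeq (GRCh38.p14), which matched 18023 of 18715 RefSeq accessions to 1 symbol; the accession of the brightest RUNX2 probe was named through the study's gene list. Each related gene is represented by its brightest kept probe. Named genes are RUNX2, all members, list genes past 2-fold or 1.5-fold, the 3 measured genes on each side of LMNB1 and EMD, and the 3 probes above and below LMNB1; list genes and markers named otherwise were picked after their values were seen. The members and lists were chosen with earlier results of these data known. Alternatives were another offset, no background correction, median centring, Aquantile, flagged spots kept, other signal filters, the software's and the deposited log10 ratios, each hybridization alone, a 1.5-fold rule and the mean of a gene's probes. Tables and plots were made with pandas 2.3.3, numpy 2.4.6 and matplotlib 3.10.9 in Python 3.11.15. With 1 replicate, the number of arrays limits the precision.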

Additional observations from a re-analysis of the deposited data

How the results depend on the processing

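No member called by the 2-fold or 1.5-fold rule reversed under any alternative: LMNB1 ranged from 1.45 to 2.14, EMD from 0.92 to 1.83 and LBR from -0.85 to -0.63, the extremes being the single hybridizations. LBR lost its 1.5-fold call with median centring (-0.74 and -0.56). The count of member probes at least 2-fold higher was 2 in place of 1 with median centring, with the software's log ratios, with the deposited table and with the 1.5-fold rule, the added probe being EMD, and it was 1 to 2 with either hybridization left out. The count at least 2-fold lower was 1 in place of 0 with the 1.5-fold rule, through LBR. The median over member probes was 0.25 with median centring and 0.12 to 0.13 with either hybridization left out. Over all probes, the count 2-fold higher was 77 with median centring and 103 with the software's log ratios, against 44, and the count 2-fold lower was 253 with the software's log ratios, against 142; with a single hybridization the counts were 88 and 219 higher, and 506 and 196 lower, for hybridizations 1 and 2. The cause was not tested. With the mean of both probes, TMPO was at -0.23 in place of -0.50 and LMNA at 0.31 in place of 0.09. LEMD3, the beta TMPO probe and both SUN1 probes changed sign under at least 1 alternative. Aquantile leaves ratios as they are by construction. No paired analysis was possible because both hybridizations hold the same pair of RNAs and no test was made.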

Other observations

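Some related genes had a further probe that differed from the brightest one; these were chosen after their values were seen. CHMP4B, a subunit of the ESCRT-III complex that seals the nuclear envelope, had a dimmer probe that read 9936 in cl-sh3 and 4152 in the control in hybridization 1, and 10842 and 3097 in hybridization 2. Its log2 ratios were 1.26 and 1.81, or 2.89-fold higher at the mean, while the brightest CHMP4B probe had 0.06 and 0.28. The third probe of GMCL1, whose protein binds emerin and LAP2 beta, read 1002 and 1734, then 876 and 1710, with ratios of -0.79 and -0.97, against -0.39 and -0.25 for its brightest probe. Which transcripts these probes detect was not examined.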
